A study of Mus musculus with 4 samples.

Results

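This section describes 7 mouse genes of fatty acid import and oxidation, Slc27a2, Cpt1a, Cpt2, Crat, Acadm, Acadl and Acadvl, out of 8251 genes measured on 4 Affymetrix arrays. They were taken as every probe set that the platform annotation pairs with only 1 of these symbols, which gave 10 of 10833 probe sets with a single symbol. The genes were chosen by the differences they showed between these same arrays, so all of their values are given as a description, without a test. The arrays held total RNA of E14tg2a, an embryonic stem cell line grown without feeder cells. The 4 groups were Akt12 cells without LIF for 4 days, Akt12 cells with LIF at 3000 U/ml, Control cells without LIF for 4 days and Control cells with LIF at 3000 U/ml, with 1 array each. LIF, leukemia inhibitory factor, is the cytokine that holds mouse stem cells in the undifferentiated state. Akt12 cells express an Akt kinase that is constitutively active, per the labels, and every group shares the E14tg2a background. The sources used here do not give the Akt form or its promoter, whether 12 names a clone, or whether Control cells carry an empty vector. A difference between clones therefore cannot be told apart from one made by Akt. Akt1 had a log2 difference of -0.13 between Akt12 and Control cells with LIF and -0.65 without LIF, and where its probe set lies relative to the introduced sequence is not known here, so it does not check the label.

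Fatty acids are burned in a fixed sequence of steps. They are taken up and joined to coenzyme A, the long ones are passed into mitochondria as carnitine esters, and acyl-CoA dehydrogenases sorted by chain length then take the first oxidative step of each round of beta-oxidation. SLC27A2 (also called FATP2) imports and activates long and very long chains, CPT1A on the outer mitochondrial membrane makes the carnitine ester and limits the rate of entry, and CPT2 on the inner side turns it back into acyl-CoA. Mouse embryonic stem cells are known for drawing heavily on glycolysis, and nuclear receptors of the PPAR family are known activators of many genes of this pathway in liver and muscle.

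The values below are intensities after quantile normalization, which gives all arrays the same distribution. Values under an intensity of 15.8, the 40th percentile of all values, were treated as a floor at which no order can be read. Each array had between 5625 and 5659 genes above it. Since no group has a replicate, no difference has a replicate check, and more RNA per cell cannot be told apart from a larger share of cells of one kind. The only error available was the SD of log2 differences among probe sets that share a gene, which was 0.351 for LIF withdrawal in Akt12 cells, 0.411 for LIF withdrawal in Control cells, 0.411 for Akt12 against Control cells without LIF and 0.359 with LIF. It says nothing about the spread of cultures. The markers of undifferentiated stem cells fixed for this work, among them Pou5f1, Nanog and Sox2, had 9 of 10 members above the floor without LIF and 9 with LIF in Akt12 cells, against 7 without LIF and 9 with LIF in Control cells, with Esrrb at the floor on every array. The actin 3' to 5' signal ratio, which reports on RNA integrity and labelling, was 2.48 without LIF and 3.04 with LIF in Akt12 cells, against 1.66 without LIF and 2.33 with LIF in Control cells.

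The promoters of the 4 genes whose values spanned at least 2-fold over the arrays are shown here, because these genes carry the differences described below. Each sequence is from RefSeq, build GRCm38.p6, and runs 5′ to 3′ along the gene's strand from 250 bases before its start to 50 bases after it. Capitals mark AGGTCA or its reverse complement TGACCT, the core letters bound by many nuclear receptors.
Slc27a2, chr2:126552774-126553073, plus strand: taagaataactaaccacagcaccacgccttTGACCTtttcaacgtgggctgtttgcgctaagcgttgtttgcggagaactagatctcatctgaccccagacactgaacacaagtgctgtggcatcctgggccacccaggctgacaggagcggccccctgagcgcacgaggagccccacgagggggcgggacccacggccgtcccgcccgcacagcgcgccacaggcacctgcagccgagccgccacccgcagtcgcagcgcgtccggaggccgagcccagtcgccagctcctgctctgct
Cpt1a, chr19:3323051-3323350, plus strand: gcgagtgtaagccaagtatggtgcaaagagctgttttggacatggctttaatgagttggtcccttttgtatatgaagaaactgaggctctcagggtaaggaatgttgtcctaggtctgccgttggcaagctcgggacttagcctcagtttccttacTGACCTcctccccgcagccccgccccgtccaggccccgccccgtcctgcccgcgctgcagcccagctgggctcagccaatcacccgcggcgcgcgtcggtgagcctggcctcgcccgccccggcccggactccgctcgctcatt
Acadm, chr3:153944594-153944893, minus strand: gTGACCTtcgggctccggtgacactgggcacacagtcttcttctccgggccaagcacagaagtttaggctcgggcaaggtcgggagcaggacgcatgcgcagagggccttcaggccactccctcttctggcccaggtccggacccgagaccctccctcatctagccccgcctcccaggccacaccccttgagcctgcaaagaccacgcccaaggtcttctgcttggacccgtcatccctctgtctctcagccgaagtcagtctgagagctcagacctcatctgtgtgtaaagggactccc
Acadl, chr1:66863260-66863559, minus strand: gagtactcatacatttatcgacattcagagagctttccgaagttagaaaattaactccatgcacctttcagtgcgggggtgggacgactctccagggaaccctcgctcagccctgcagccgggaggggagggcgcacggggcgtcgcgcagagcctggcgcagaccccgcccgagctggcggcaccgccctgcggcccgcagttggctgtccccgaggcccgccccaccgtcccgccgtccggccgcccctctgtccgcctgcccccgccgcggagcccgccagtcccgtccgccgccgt
AGGTCA, searched on both strands, occurred once in the window of Slc27a2 (beginning 220 bases before the start), Cpt1a (94 bases), Acadm (249 bases) and Acadvl (87 bases), and not in those of Cpt2 and Acadl. That is 4 of 6 genes, while 16.3% of 32851 mouse promoters of the same length held it. Crat had no entry in the table. No window of these genes held a direct repeat of AGGTCA with 1 base between, an arrangement found in 13 of the 32851, nor the forkhead letters TGTTTAC, found in 3.65%. The STAT letters TTCNNNGAA, found in 8.30%, occurred only in the window of Cpt2 among the 6, and CCAAT, found in 37.4%, only in that of Cpt1a. GGGCGG occurred in the windows of Slc27a2 (2 times), Cpt1a (3), Cpt2 (3) and Acadl (4) and in 35.7% of all promoters, and the motifs did not overlap within these windows. A match of letters is not a measured binding site.

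Slc27a2 was the member whose direction after LIF withdrawal was opposite in the lines. Its single probe set, 100967_at, had an intensity of 48.1 without LIF and 19.8 with LIF in Akt12 cells, against 25.5 without LIF and 174.4 with LIF in Control cells. Control cells with LIF thus stood far above the other 3 arrays, all of which were dim. As deposited, before normalization, the value was 41.2 without LIF and 16.5 with LIF in Akt12 cells, against 28.1 without LIF and 223.2 with LIF in Control cells. The order of the arrays was the same on both scales. Control cells without LIF and Akt12 cells with LIF, the lowest arrays, were 0.36 apart on the log2 scale.

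In Akt12 cells the gene was 2.43-fold higher without LIF than with it, a log2 difference of 1.28. In Control cells it was 6.85-fold lower without LIF, a log2 difference of -2.78, which was the 14th lowest of 5984 genes compared. Akt12 cells with LIF were 8.82-fold lower than Control cells with LIF (log2 -3.14, the 5th lowest of 5938 genes). Without LIF the order was turned, with Akt12 cells 1.89-fold higher than Control cells (log2 0.92). The response of Akt12 cells minus that of Control cells was 4.06 on the log2 scale, the 3rd highest of 5027 genes above the floor on all arrays. These ranks are among the values by which the gene was chosen.

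The higher value of Akt12 cells without LIF rests on dim signals. With the floor set at the 60th percentile, an intensity of 47.8, the log2 difference of Slc27a2 was 0.01 for LIF withdrawal in Akt12 cells and 0.01 for Akt12 against Control cells without LIF. The lower values against Control cells with LIF stayed past 2-fold under that floor, at -1.87 for both. The summed intensity of 14 primitive and visceral endoderm markers, in which bright probe sets weigh most, was 1805 without LIF and 2626 with LIF in Akt12 cells, against 2109 without LIF and 1035 with LIF in Control cells. Without Apoe, the brightest of them, it was 1321 without LIF and 1190 with LIF in Akt12 cells, against 1374 without LIF and 582 with LIF in Control cells. Both sums were lowest in Control cells with LIF, where Slc27a2 was highest, and the order of the other arrays turned with Apoe. The part of such cells in the values of Slc27a2 was not tested. Of the 14 markers, 10 were above the floor without LIF and 11 with LIF in Akt12 cells, against 7 without LIF and 7 with LIF in Control cells. Ttr, Apoa1 and Hnf4a were at the floor on all 4 arrays. Gata4, Gata6, Sox17 and Cubn were above it in Akt12 cells with LIF and at it in Control cells with LIF. The second probe set of Cubn, 94999_at, went the other way, above the floor in Control cells and at it in Akt12 cells in either medium. For Gata6, 160662_r_at was above the floor in Akt12 cells only. Further probe sets of Gata6 (93925_at) and Sox17 (92997_g_at) were at the floor on all 4 arrays.

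**Figure D1:**
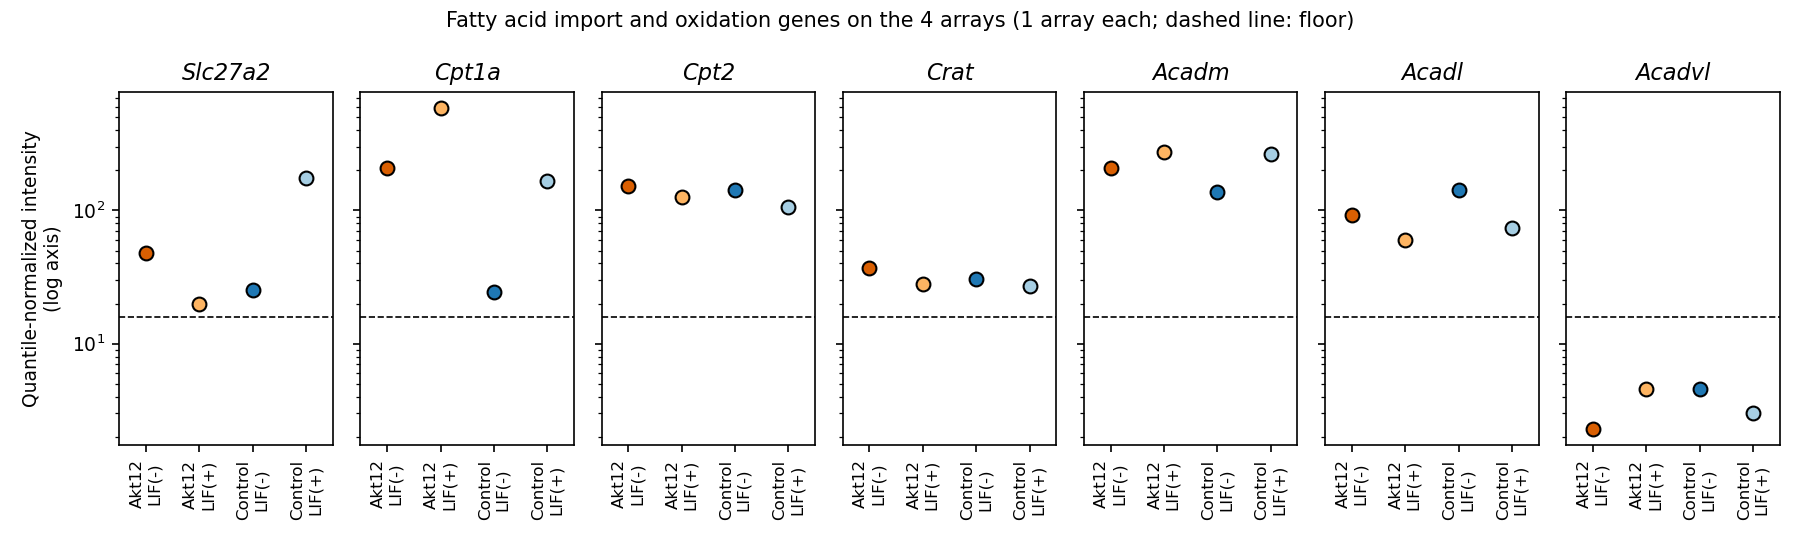
Quantile-normalized intensity (log axis) of the 7 genes, 1 panel per gene and 1 point per array, with Akt12 arrays left of Control arrays and the floor of 15.8 as a dashed line. Slc27a2 is highest in Control cells with LIF (174.4), Cpt1a is highest in Akt12 cells with LIF (587.1) and lowest in Control cells without LIF (24.6), and Acadvl lies below the floor on every array.

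Cpt1a had the widest range of the 7 genes. Its single probe set, 93320_at, had an intensity of 209.1 without LIF and 587.1 with LIF in Akt12 cells, against 24.6 without LIF and 166.0 with LIF in Control cells. Akt12 cells were higher than Control cells in either medium, and cells without LIF were lower than those with it in either line. As deposited, the intensity was 173.8 without LIF and 505.2 with LIF in Akt12 cells, against 27.2 without LIF and 212.2 with LIF in Control cells, so that Control cells with LIF stood above Akt12 cells without LIF on that scale.

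LIF withdrawal left Cpt1a 2.81-fold lower in Akt12 cells (log2 -1.49, the 62nd lowest of 5945 genes) and 6.74-fold lower in Control cells (log2 -2.75, the 16th lowest of 5984). Against Control cells, Akt12 cells were 8.49-fold higher without LIF (log2 3.09, the 10th highest of 6009 genes) and 3.54-fold higher with LIF (log2 1.82, the 29th highest of 5938). All 4 differences were at least 4.24 times the SD between probe sets, but they are among the values by which the gene was chosen. Control cells without LIF were dim for this gene. With the floor at the 60th percentile, LIF withdrawal in Control cells gave -1.80 and Akt12 against Control cells without LIF gave 2.13. The level in Akt12 cells without LIF was close to that of Control cells with LIF, 0.33 apart on the log2 scale. No SD between probe sets was computed for this pair of arrays. The smallest one given above is 0.351. The response in Akt12 cells minus that in Control cells was 1.26 on the log2 scale, a size reached or passed by 9.93% of 5027 genes.

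The order of the arrays by Cpt1a, from Akt12 cells with LIF through Akt12 cells without LIF and Control cells with LIF to Control cells without LIF, was also their order by the actin 3' to 5' ratio. It was not their order by the Gapdh 3' to 5' ratio, which was 2.46 without LIF and 3.05 with LIF in Akt12 cells, against 3.19 without LIF and 3.03 with LIF in Control cells and so was highest where Cpt1a was lowest. As deposited, Cpt1a was 173.8 in Akt12 cells without LIF and 212.2 in Control cells with LIF, so on that scale its order was not that of the actin ratio. The part of RNA quality in Cpt1a was not tested. The summed intensity of the 10 stem cell markers was 3776 without LIF and 8622 with LIF in Akt12 cells, against 1666 without LIF and 6921 with LIF in Control cells, so that it was also lowest where Cpt1a was lowest. The part of differentiated cells in these values was not tested.

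Cpt2, the partner of Cpt1a on the inner membrane, differed little between the arrays. Its probe set 95646_at had an intensity of 153.2 without LIF and 125.3 with LIF in Akt12 cells, against 143.5 without LIF and 105.4 with LIF in Control cells. The arrays without LIF were the higher ones in each line, by 0.29 on the log2 scale in Akt12 cells and 0.44 in Control cells. Akt12 cells were 0.09 above Control cells without LIF and 0.25 above them with LIF, and both of these turned negative when the values were used as deposited (-0.22 and -0.35). Only the 0.44 exceeded the SD between probe sets, by 1.08 times. A second probe set, 161978_r_at, was at or below an intensity of 0.4 on every array and gave no information.

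Crat, which moves acetyl and other short groups between carnitine and coenzyme A, was low and nearly level. Probe set 103646_at had an intensity of 37.0 without LIF and 28.3 with LIF in Akt12 cells, against 30.8 without LIF and 27.0 with LIF in Control cells. The 4 values lay within 0.45 of each other on the log2 scale. Its largest difference, 0.39 for LIF withdrawal in Akt12 cells, was 1.11 times the SD between probe sets, and the others were smaller than that SD. Both values of Akt12 against Control cells, 0.26 without LIF and 0.07 with LIF, turned negative when the values were used as deposited (-0.09 and -0.46). The second probe set of Crat, 161989_f_at, stayed below the floor on every array.

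Acadm, the medium-chain dehydrogenase, and Acadl, the long-chain one, differed in opposite directions after LIF withdrawal. Acadm (92581_at) had an intensity of 208.3 without LIF and 276.8 with LIF in Akt12 cells, against 137.7 without LIF and 265.1 with LIF in Control cells. With LIF the lines were 0.06 apart on the log2 scale, and both were lower without it. The log2 differences after withdrawal were -0.41 in Akt12 cells and -0.94 in Control cells, where the fold was 1.92. Acadm was thus just under 2-fold in Control cells, and it passed that size with the arrays scaled to the hybridization controls (-1.05) and with the values as deposited (-1.24). Akt12 cells without LIF were 0.60 above Control cells without LIF, 1.45 times the SD between probe sets. The arrays stood in the same order by Acadm as by the summed stem cell markers given above, both after normalization. As deposited, Acadm was lower in Akt12 than in Control cells with LIF (-0.48). The markers were not summed on that scale, where their median for these arrays was also negative. The part of undifferentiated cells in Acadm was not tested.

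Acadl (95425_at) had an intensity of 92.4 without LIF and 60.2 with LIF in Akt12 cells, against 142.0 without LIF and 74.3 with LIF in Control cells. Both arrays without LIF were above both arrays with LIF, although Akt12 cells without LIF were only 0.31 above Control cells with LIF on the log2 scale. No SD between probe sets was computed for that pair of arrays, and the smallest one given above is 0.351. As deposited, the order of these 2 arrays turned, with 77.4 in Akt12 cells without LIF and 93.5 in Control cells with LIF. The log2 difference after withdrawal was 0.62 in Akt12 cells and 0.93 in Control cells, where the fold was 1.91. Akt12 cells were below Control cells in either medium, by log2 differences of -0.62 without LIF and -0.30 with LIF. Neither the response of Acadm nor that of Acadl differed between the lines by much more than the SD of 0.499 between probe sets for such a difference, at 0.53 for Acadm and -0.31 for Acadl in Akt12 minus Control cells.

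Acadvl, the very-long-chain dehydrogenase, could not be followed. Its probe sets 161623_at and 93334_at had no intensity above 5.6 on any array, below the floor, so no difference is given. Of the 7 genes, 6 could be compared in each comparison.

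**Figure D2:**
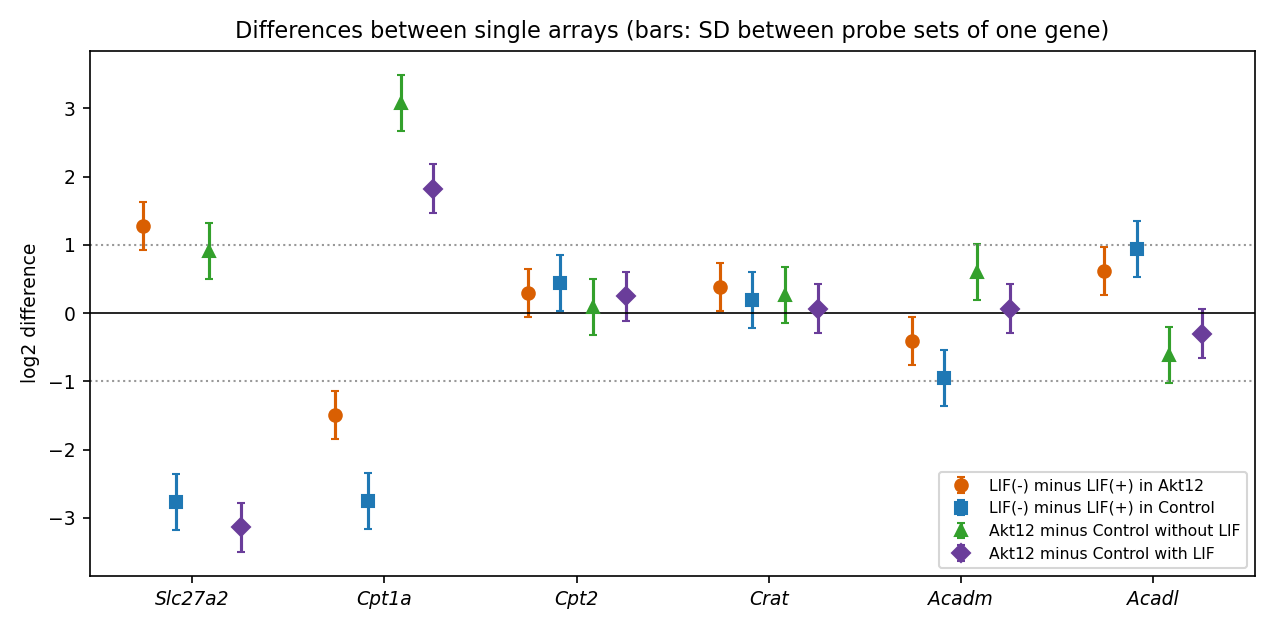
Log2 differences of the 6 genes above the floor in the 4 comparisons, with bars for the SD between probe sets of one gene in that comparison, which does not cover cultures, and dotted lines at 2-fold. Slc27a2 is above 0 for LIF withdrawal in Akt12 cells (1.28) and below it in Control cells (-2.78), while Cpt1a is below 0 in both (-1.49 and -2.75) and Crat and Cpt2 stay near 0.

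The 6 genes did not all differ in the same direction, which is only a description, since they were chosen by these contrasts. After LIF withdrawal in Akt12 cells, 1 gene was at least 2-fold higher (Slc27a2) and 1 was lower (Cpt1a), where 3.01% of 5945 genes were higher and 3.65% were lower by that size. In Control cells none was at least 2-fold higher and 2 were lower (Slc27a2 and Cpt1a), where 7.39% of 5984 genes were higher and 6.4% lower. Their median log2 difference was 0.34 in Akt12 cells, against 0.01 for all genes, and -0.38 in Control cells, against -0.03 for all genes.

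Between the lines without LIF, 1 of the 6 was at least 2-fold higher in Akt12 cells (Cpt1a) and none was lower, where 5.87% of 6009 genes were higher and 8.12% lower. With LIF, 1 was higher (Cpt1a) and 1 was lower (Slc27a2), where 3.5% of 5938 genes were higher and 3.64% lower. The medians were 0.43 without LIF and 0.06 with LIF, against 0.06 and 0.01 for all genes, and the one with LIF became -0.47 with the values as deposited. Since the rule drew on these contrasts, nothing is read from the counts. The comparisons share arrays, so their values stand side by side and are not independent.

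The balance of higher and lower genes over the whole array depended on the scaling. Of the genes at least 2-fold different, 45.2% were higher after LIF withdrawal in Akt12 cells, and 24.6% with the arrays scaled to the hybridization controls. In Control cells it was 53.6%, and 30.2% with the values as deposited. For Akt12 against Control cells without LIF it was 42.0%, and 18.8% as deposited. With LIF it was 49.1%, against 63.3% scaled to the hybridization controls and 6.18% as deposited. Slc27a2 and Cpt1a stayed at least 2-fold different in the same direction under every scaling in each comparison in which they were so here.

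**Figure D3:**
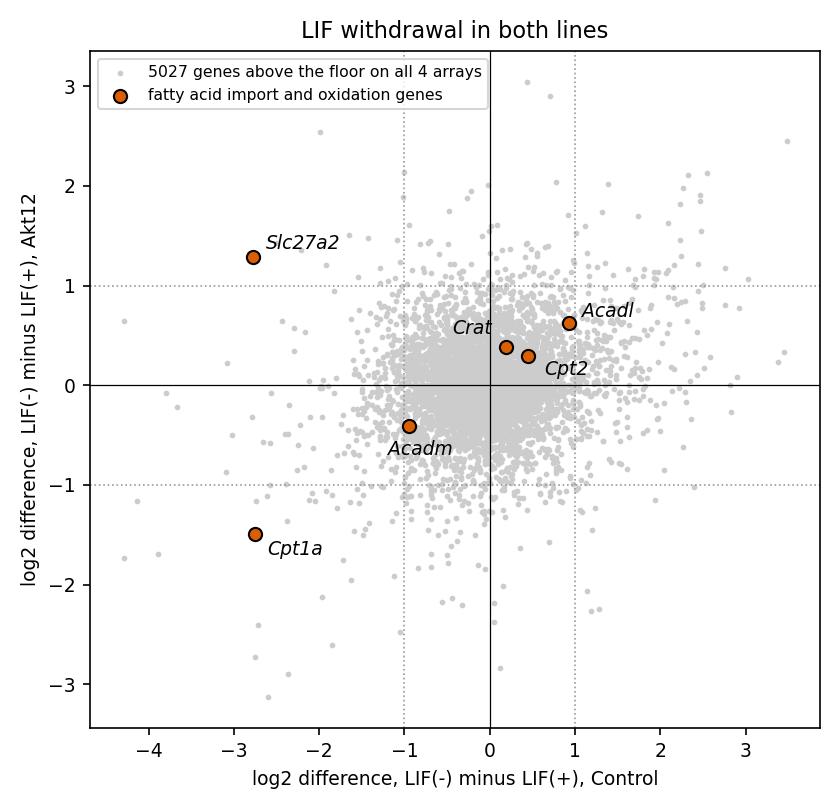
Log2 difference after LIF withdrawal in Akt12 cells (vertical) against that in Control cells (horizontal) for 5027 genes above the floor on all 4 arrays, in grey, with the 6 genes in orange and dotted lines at 2-fold. Slc27a2 lies in the upper left (-2.78 and 1.28) and Cpt1a in the lower left (-2.75 and -1.49), and the other 4 lie inside the 2-fold lines.

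Genes whose values ran most like those of each wide-ranging member were found by the Euclidean distance of their 4 log2 values, each taken relative to its own mean, among 5027 genes. For Slc27a2 they were Mycn (distance 0.84), Slc6a15 (1.19) and Knop1 (1.24). Mycn had an intensity of 465.0 without LIF and 202.1 with LIF in Akt12 cells, against 227.3 without LIF and 858.4 with LIF in Control cells, so that Control cells with LIF were highest there too. For Cpt1a they were Rpl39l (0.54), Aard (0.72) and Rhox5 (0.82). Rpl39l had an intensity of 283.2 without LIF and 517.7 with LIF in Akt12 cells, against 27.6 without LIF and 235.9 with LIF in Control cells. For Acadm they were Enah (0.02), Cryz (0.05) and Mrps26 (0.07), and for Acadl they were Kctd10 (0.06), Lef1 (0.14) and Smad1 (0.14). These distances rest on 4 arrays and are a description.

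The other genes of uptake and activation gave a mixed picture. Of 14 on the array 7 could be compared, and Cd36, Slc27a1, Slc27a3, Slc27a5, Fabp1, Fabp4 and Vldlr were at the floor on all arrays. In Akt12 cells, 2 of the 7 passed 2-fold upward after LIF withdrawal and 1 downward (median 0.06, and -0.07 scaled to the hybridization controls), and in Control cells none was 2-fold different (median -0.13). The acyl-CoA ligase genes Acsl4 and Acsl5, whose products activate long chains, were higher in Akt12 cells without LIF, Acsl4 by 1.22 on the log2 scale and Acsl5 with 105.2 without LIF and 52.5 with LIF, just past 2-fold. As deposited, Acsl5 was just under 2-fold, at 88.0 without LIF and 44.1 with LIF, and 1 of the 7 was 2-fold higher. Acsl4 had an intensity of 272.7 without LIF and 117.2 with LIF in Akt12 cells, against 183.7 without LIF and 214.2 with LIF in Control cells, and its second probe set gave at least 0.41 in Akt12 cells, where it was above the floor only without LIF. The fatty acid binding protein gene Fabp3 was lower in Akt12 cells, at 190.2 without LIF and 479.5 with LIF. Between the lines with LIF, Fabp3 was higher in Akt12 cells (log2 1.30) and Acsl5 (-1.15) and Fabp5 (-1.13) were lower (median 0.14, and -0.38 as deposited), and without LIF none of the 7 was 2-fold different (median 0.33), although Fabp5 was 2.24-fold lower as deposited. As deposited, Fabp3 with LIF was 418.8 in Akt12 cells and 250.7 in Control cells, less than 2-fold apart, while Acsl4 was 2.78-fold lower in Akt12 cells.

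Next to Cpt1a in the carnitine shuttle, Slc25a20, the carrier that exchanges acylcarnitine for carnitine across the inner membrane, was the only other gene that could be compared among 3 on the array, since the carnitine importer genes Slc22a4 and Slc22a5 were at the floor throughout. It had an intensity of 109.0 without LIF and 224.4 with LIF in Akt12 cells, against 66.8 without LIF and 130.5 with LIF in Control cells. It shared with Cpt1a lower values without LIF in each line, with log2 differences of -1.04 in Akt12 cells and -0.97 in Control cells. Akt12 cells were 0.71 above Control cells without LIF and 0.78 above them with LIF.

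Of the 12 other genes of mitochondrial beta-oxidation, 2 were at least 2-fold lower after LIF withdrawal in Akt12 cells and none was higher. They were Etfb, a subunit of the flavoprotein that takes electrons from the dehydrogenases (log2 -1.27, second probe set -0.13), and the reductase gene Decr1, at least 2.36-fold lower since it was below the floor without LIF. As deposited, Etfb passed 2-fold in Akt12 cells. Decr1, at 8.1 without LIF and 31.0 with LIF, was at least 2-fold lower there too, since it was again below the floor without LIF. In Control cells 1 was higher and none lower. Etfb, at -0.74 there (second probe set 0.31), was 2.02-fold lower as deposited. The higher gene was Etfdh, which hands these electrons to ubiquinone, with an intensity of 51.6 without LIF and 54.1 with LIF in Akt12 cells, against 140.2 without LIF and 45.0 with LIF in Control cells. The median of the list was -0.33 in Akt12 cells and -0.22 in Control cells, against 0.01 and -0.03 for all genes. Between the lines, Hadh was higher (1.01) and Etfdh lower (-1.44) in Akt12 cells without LIF, with a list median of 0.15, and Etfb was higher with LIF (1.01, second probe set 0.33), with a list median of 0.32. As deposited, neither Hadh without LIF (1.63-fold) nor Etfb with LIF (1.38-fold) reached 2-fold, and Hadh did not reach it with the trimmed-mean scaling either. The medians between the lines were -0.18 without LIF and -0.27 with LIF when the values were used as deposited.

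**Figure D4:**
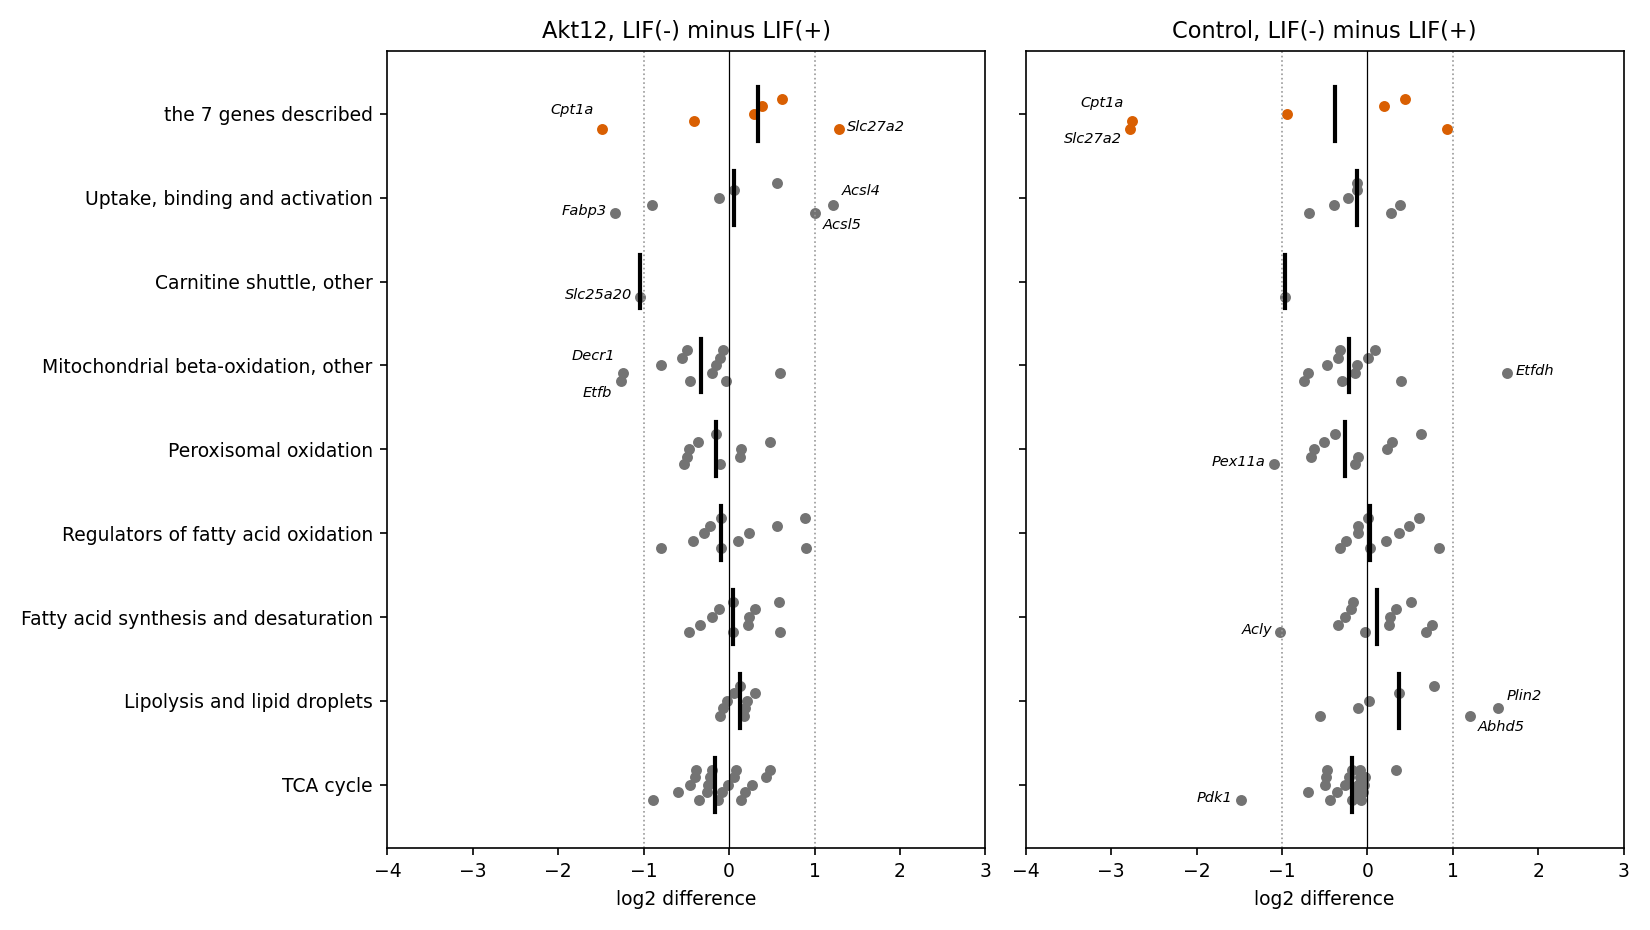
Log2 differences after LIF withdrawal in Akt12 cells (left) and Control cells (right) for the 7 genes, of which 6 are drawn in orange, and for the lists of related genes in grey, with 1 point per gene that was compared. Black bars are medians, dotted lines mark 2-fold and genes past it are named, among them Slc25a20 (-1.04) and Fabp3 (-1.33) in Akt12 cells and Etfdh (1.64) and Pdk1 (-1.48) in Control cells.

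The peroxisomal genes shorten very long chains. Of 10 genes compared in Control cells only Pex11a, a gene of peroxisome division, was 2-fold lower without LIF (log2 -1.10, and under 2-fold with the trimmed-mean scaling) and none was higher, and of 9 compared in Akt12 cells none was 2-fold different. The medians were -0.15 in Akt12 cells and -0.26 in Control cells. No gene of this list was 2-fold different between the lines, and the medians were 0.36 without LIF and 0.20 with LIF.

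The regulators of the pathway showed few differences. Of 17 on the array 11 could be compared, and the receptor genes Pparg and Ppard and the coactivator gene Ppargc1a were at the floor on all arrays. Ppara, the receptor best known for raising fatty acid oxidation genes in liver, was dim, at 12.7 without LIF, below the floor, and 19.4 with LIF in Akt12 cells, against 21.5 without LIF and 16.6 with LIF in Control cells. None of the 11 was 2-fold different after LIF withdrawal in either line, with medians of -0.09 in Akt12 cells and 0.03 in Control cells. Between the lines, none was 2-fold different without LIF (median -0.11), and with LIF only Lpin1, which encodes a phosphatidate phosphatase and coactivator, was higher in Akt12 cells (log2 1.17, list median 0.22). As deposited, Lpin1 was 1.57-fold higher with LIF, and the list then had 0 genes 2-fold higher and 3 lower. The probe sets of Rxra, which encodes the partner of the PPAR receptors, disagreed. The one with the higher signal, 92235_g_at, gave -0.09 for LIF withdrawal in Akt12 cells, 0.01 in Control cells, -0.21 for Akt12 against Control cells without LIF and -0.10 with LIF. The other, 92234_at, gave -1.12 for LIF withdrawal in Akt12 cells, -1.13 in Control cells, 1.23 for Akt12 against Control cells without LIF and 1.22 with LIF.

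Genes that make or store fatty acids were compared with the same sizes. Of 16 synthesis and desaturation genes 12 were on the array, none was 2-fold different after LIF withdrawal in Akt12 cells (median 0.05), and in Control cells only Acly, which makes cytosolic acetyl-CoA, was lower (-1.02, median 0.11). The desaturase gene Scd1 was higher in Akt12 than in Control cells without LIF (1.06, median 0.09) and with LIF (1.01, median 0.10), and its second probe set gave 0.77 and 0.51. As deposited, Scd1 was less than 2-fold different in both. On that scale Acly was 2.75-fold lower in Akt12 than in Control cells with LIF. Fasn was also past 2-fold lower there, at 284.4 in Akt12 and 657.1 in Control cells. Of the lipolysis and lipid droplet genes, none of 9 was 2-fold different after LIF withdrawal in Akt12 cells (median 0.13), and 2 of 7 were higher in Control cells (median 0.37). These were Plin2, which coats lipid droplets (1.53), and Abhd5, the activator of the lipase ATGL (1.20, and 1.99-fold as deposited). Without LIF, Plin2 (-1.08) and the lysosomal lipase gene Lipa (-1.22) were lower in Akt12 than in Control cells, with a median of -0.05 over 8 genes, and with LIF none of 8 was 2-fold different, with a median of 0.07.

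Of 20 genes of the TCA cycle and of pyruvate dehydrogenase control, none was 2-fold different after LIF withdrawal in Akt12 cells (median -0.17), and 1 was lower in Control cells (median -0.18). It was Pdk1, a kinase that holds back pyruvate dehydrogenase, with an intensity of 368.3 without LIF and 323.2 with LIF in Akt12 cells, against 160.8 without LIF and 448.6 with LIF in Control cells. Pdk1 was also the only one 2-fold different between the lines without LIF (1.20, median 0.34), and none was so with LIF (median 0.20). As deposited, Pdk1 was 1.85-fold higher in Akt12 cells without LIF, under 2-fold, and 2.06-fold lower with LIF. For ketone body use, only Oxct1 was on the array, and it had an intensity of 137.6 without LIF and 134.6 with LIF in Akt12 cells, against 276.1 without LIF and 125.8 with LIF in Control cells.

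The sign of several list medians turned with the scaling. With the values as deposited, the medians for Akt12 against Control cells with LIF were -0.35 for the peroxisomal genes, -0.30 for the regulators, -0.47 for synthesis and desaturation, -0.36 for lipolysis and lipid droplets and -0.38 for the TCA cycle. That for Akt12 against Control cells without LIF was -0.19 for synthesis and desaturation. Those after LIF withdrawal in Control cells were -0.23 for the regulators, -0.20 for synthesis and desaturation, and -0.01 for lipolysis and lipid droplets. Scaled to the hybridization controls, they were -0.04 for the regulators and -0.01 for synthesis and desaturation, which had -0.10 in Akt12 cells.

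Marker lists of cell types differed in the same comparisons. Of 9 stem cell markers compared, 7 were at least 2-fold lower after LIF withdrawal in Akt12 cells (median -1.69) and 6 in Control cells (median -2.25), and 5 were higher in Akt12 than in Control cells without LIF (median 1.70) and 3 with LIF (median 0.32). As deposited, 0 of the 9 were 2-fold higher with LIF (median -0.27). The counts after withdrawal depended on Nanog, which passed 2-fold in Akt12 cells (-1.11) and not in Control cells (-0.92). Its second probe set passed 2-fold in Control cells (-1.04) and not in Akt12 cells (-0.67). As deposited, Nanog was past 2-fold in both lines (-1.19 in Akt12 and -1.21 in Control cells). Of the endoderm markers, 1 was higher and 1 lower after withdrawal in Akt12 cells (median -0.31 over 11), and 4 were higher and 1 lower in Control cells (median 0.55 over 10). The higher one in Akt12 cells was Dab2 (1.91), whose other probe sets gave 0.50 and 0.71. In Akt12 against Control cells, 3 of 10, not all the same 10 genes, were higher without LIF (median 0.33) and 7 of 11 with LIF (median 1.24), where 5 of 11 were higher as deposited (median 0.72). Cubn was counted as higher in both, at 2.30 without LIF and at least 2.31 with LIF. Its second probe set gave the other sign, -0.33 or lower without LIF and -0.12 or lower with LIF. Of the trophoblast markers, 1 of 6 was higher after withdrawal in Akt12 cells (median 0.48) and 4 of 8 in Control cells (median 1.55), while 5 of 8 were lower in Akt12 than in Control cells without LIF (median -1.74) and 1 of 7 with LIF (median -0.74), where 4 of 7 were lower as deposited (median -1.31). Of the fibroblast and feeder markers, none of 4 was 2-fold different after withdrawal in Akt12 cells (median 0.05, and -0.09 scaled to the hybridization controls) and 3 of 7 were higher in Control cells (median 0.48), while 3 of 7 were lower in Akt12 than in Control cells without LIF (median -0.13) and none of 5 was different with LIF (median 0.11, and -0.28 as deposited). Their summed intensity was 303.0 without LIF and 299.2 with LIF in Akt12 cells, against 586.7 without LIF and 262.4 with LIF in Control cells. For the trophoblast markers it was 827 without LIF and 680 with LIF in Akt12 cells, against 2397 without LIF and 819 with LIF in Control cells. Bright probe sets weigh most here too. As deposited, Krt8, Krt18 and Krt19 were at 764.8, 622.3 and 542.3 in Control cells without LIF. The 4 trophoblast markers higher after withdrawal in Control cells were these and Tfap2a. Psg16 and Elf5 among the trophoblast markers, and Pdgfrb and Postn among the fibroblast markers, were at the floor on all 4 arrays. The part of these cell types in the values of the 6 genes was not tested.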

How the data were processed

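Total RNA of 4 cultures was measured on 1 Affymetrix array each. The deposited values are intensities, 1 per probe set, on a linear scale with 1 decimal and none below 0, read from the values themselves. Software and scaling used by the authors are not given in the sources at hand. Of 12488 probe sets, 66 array controls were set aside. The other 12422 were quantile normalized, set to a floor at the 40th percentile of all values and put on the log2 scale, because the 2% trimmed means of the deposited intensities differed between arrays (80.3 and 81.7 for Akt12 cells without and with LIF, 97.4 and 121 for Control cells without and with LIF). The platform annotation gave 10833 probe sets 1 gene symbol, 396 several and 1193 none. Gene identifiers in RefSeq's GRCm38.p6 table, which held 10817 of the 10833, gave the current symbols, and a gene was represented by its brightest probe set (mean of the log2 values). Level comparisons are within a probe set, since brightness differs between probe sets.

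With 1 array per group no test was run. A gene was compared when 1 or both arrays of the comparison exceeded the floor, and counted when at least 2-fold different. Besides the 7 genes, the text names list genes at least 2-fold different, at most 4 per list and comparison, and the 3 genes nearest to each member spanning 2-fold. Genes at the floor, Ppara and Rxra were named after their values were seen. The members and the 13 other lists were chosen with earlier results of these data known, and the promoter motifs after the values were seen. The steps were tested on simulated data. Precision is limited by there being 1 array per group. The work used Python 3.11.15, numpy 2.4.6, pandas 2.3.3 and scipy 1.17.1. The 8 alternatives concerned scaling, floor and choice of probe set.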

Additional observations from a re-analysis of the deposited data

Results flagged for a closer look

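Slc27a2 was higher without LIF than with it in Akt12 cells (1.28 on the log2 scale) and lower in Control cells (-2.78), 4.06 apart. Akt12 against Control cells gave 0.92 without LIF and -3.14 with LIF. These are 4.06 apart by arithmetic, since the same 4 arrays enter, and are not a second observation. With the floor at the 60th percentile, the 1.28 and the 0.92 both became 0.01. With 1 array per group these differences between effects were not tested. Among genes of the other lists that were 2-fold different in some comparison, opposite values that each exceeded the SD between probe sets were met by 5. Apoe, from the endoderm markers, had -1.57 after withdrawal in Akt12 cells and 0.70 in Control cells, which are -2.27 apart. For Akt12 against Control cells it had -0.60 without LIF and 1.67 with LIF, -2.27 apart by the same arithmetic. For Akt12 against Control cells without LIF and with LIF, Acsl4 had 0.57 and -0.87 (1.44 apart), Decr1 had -0.50 and 0.75 (-1.24 apart, with 1 array below the floor), Pdk1 had 1.20 and -0.47 (1.67 apart) and Plin2 had -1.08 and 0.52 (-1.6 apart). None of these was tested. With the values as deposited, where the median of all genes with LIF was -0.52, the values of Akt12 against Control cells with LIF were -0.04 for Plin2, so that its opposite sign was gone, and 0.22 for Decr1, under the SD of 0.359 between probe sets. Without LIF, Acsl4 was at 0.28, and after withdrawal in Control cells Apoe was at 0.31, both under the SD of 0.411, while Pdk1 kept opposite values of 0.89 without LIF and -1.04 with LIF.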

How the results depend on the processing

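Of 233 values of the 6 genes recomputed under 8 alternatives, 221 moved by less than the SD between probe sets, 12 moved by more, and no 2-fold difference turned its direction. Many of these values could not move. The floor at the 20th percentile changed nothing, since the 6 genes were above the main floor on every array. Taking the probe set with the largest range, or only those with a plain name, gave the same probe sets. The mean of probe sets could change only Cpt2 and Crat. With the floor at the 60th percentile, Crat was not compared, and the difference of responses was not kept for Slc27a2 and Cpt1a. Values under 2-fold changed sign 7 times, for Cpt2, Crat and Acadm, among them -0.22 for Cpt2 and -0.09 for Crat (Akt12 against Control cells without LIF, as deposited). The response of Akt12 minus Control cells was 0.12 for Cpt2 as deposited and -0.01 for Crat scaled to the hybridization controls, and under these 2 scalings Acadm joined Slc27a2 and Cpt1a as 2-fold lower after withdrawal in Control cells. With the values as deposited, where the median of all genes shifted to -0.52 for Akt12 against Control cells with LIF, -0.26 for LIF withdrawal in Control cells and -0.23 for Akt12 against Control cells without LIF, the values for Akt12 against Control cells with LIF were 1.25 for Cpt1a, -3.76 for Slc27a2, -0.35 for Cpt2, -0.48 for Acadm, -0.89 for Acadl and -0.46 for Crat. Scaling to the hybridization controls shifted the median of all genes to -0.16 for LIF withdrawal in Akt12 cells and 0.13 for Akt12 against Control cells with LIF. With the floor at the 60th percentile, which by construction shortens differences of dim genes, Slc27a2 was at 0.01 after LIF withdrawal in Akt12 cells, -1.87 in Control cells, 0.01 for Akt12 against Control cells without LIF and -1.87 with LIF. Cpt1a was at -1.80 after withdrawal in Control cells and 2.13 for Akt12 against Control cells without LIF, and 1 of the 6 genes was 2-fold different after withdrawal in Akt12 cells. Over all genes, the number at least 2-fold different after withdrawal in Akt12 cells was 396, and 970 and 192 with the floor at the 20th and 60th percentiles. After withdrawal in Control cells it was 825, 1370 and 518, for Akt12 against Control cells without LIF 841, 1440 and 501, and with LIF 424, 1002 and 214, and 1068 with the values as deposited. The endoderm marker sum without Apoe was added after seeing the data. No paired analysis was possible because each group holds 1 array, and for the same reason no replicate could be left out. Dim signal limits Slc27a2, Cpt1a in Control cells without LIF and Crat.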
